A study of Mus musculus with 4 samples.

Results

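Cycling cells of the mouse renal cortex were taken as the barcodes with at least 2 unique molecular identifiers (UMIs, counted transcripts) of Mki67 and Top2a together, among barcodes with at least 1000 detected genes and at most 50% of UMIs in mitochondrial genes. The rule kept 348 of 32407 barcodes that passed the 2 cell filters, or 1.07%, out of 48085 barcodes in all. The barcodes were thus chosen by their Mki67 and Top2a UMIs, and the levels of both genes, like those of genes that move with them, describe the choice and carry no test.

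Dividing cells copy their DNA in S phase with the minichromosome maintenance helicase, PCNA and ribonucleotide reductase, and then separate the copies in G2 and mitosis under cyclin-dependent kinase 1 (Cdk1) and its B-type cyclins. Mki67 encodes the Ki-67 protein that coats mitotic chromosomes, Top2a the topoisomerase that untangles sister DNA, and Birc5 survivin, a subunit of the chromosomal passenger complex. Both genes of the rule are transcribed most strongly late in the cycle, so cells in early S phase can be missed. In the adult kidney most tubule cells are quiescent, and tubules grow by division after birth and after injury.

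The study profiled the renal cortex of male mice by droplet single-cell RNA-seq in 4 libraries, with 1 library for each combination of genotype and age. Tfeb fl/fl mice carry floxed alleles of Tfeb, a transcription factor for lysosome and autophagy genes, and Tfeb fl/fl KAP mice carry the same alleles with the KAP-Cre transgene, whose Cre is driven by the promoter of the kidney androgen-regulated protein and acts in proximal tubule cells, mainly of segment S3. Both genotypes were taken at 6 weeks (young) and at 24 months (aged). Cortex from 2 or 3 mice was pooled in each library, so no comparison between libraries has a replicate, and the condition of a library cannot be told apart from its pool and its preparation. No test is given, and every interval is an exact 95% Clopper-Pearson or Poisson interval that covers counting error only. Where a count was 0, the limit given is instead 3 counts over the total, which lies below the exact upper bound.

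The libraries held 11016 barcodes past the filters in young Tfeb fl/fl mice, 8469 in young Tfeb fl/fl KAP mice, 5991 in aged Tfeb fl/fl mice and 6931 in aged Tfeb fl/fl KAP mice. Their deposited counts summed to 194747936, 155327520, 125729484 and 135792884 UMIs in the same order. Summed over pairs of libraries, 97 barcode sequences past the filters were shared, and 0 of these were cycling barcodes in both libraries of a pair. The deposited matrices also list entries with a value of 0, taken here as counts removed by the study's background correction, which the files themselves do not state. These made up 2.90% of the entries in young Tfeb fl/fl mice, but 12.5%, 9.41% and 12.9% in the other libraries, so such entries were unequally frequent. Among remaining barcodes, Mki67 was listed at 0 in 14, 33, 14 and 8 and Top2a in 10, 40, 6 and 11 over the 4 libraries. These numbers were small beside the cycling barcodes of young Tfeb fl/fl mice (226) but not beside those of the other libraries (72, 22 and 28), and their part in the differences between libraries was not tested.

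The label was checked with Cdk1 and Birc5, which the rule did not use. At least 2 UMIs of these genes together were found in 260 of the 348 cycling barcodes (74.7%), against 51 of 31643 barcodes without a UMI of Mki67 or Top2a (0.161%). Just outside the threshold, 26 of 416 barcodes with 1 UMI of the rule's genes had them (6.25%), and just inside it 12 of 50 barcodes with 2 UMIs (24%). Among the 298 barcodes with 3 or more UMIs the share was 83.2%. The cycling barcodes had a median of 9 UMIs of the rule's genes, with a highest value of 126, and a median of 43 detected genes of a list of 71 for G2, mitosis and spindle, against 7 in barcodes without such UMIs. For a list of 45 S-phase genes the medians were 15 and 3. UMIs of the S-phase list outnumbered those of the G2 and mitosis list in 6 of 348 cycling barcodes (1.72%). The share was close to this, 679 of 31643 (2.15%), in barcodes without rule UMIs, so it does not set cycling barcodes apart. Cycling barcodes were also deeper, with a median of 20381 UMIs against 12607 in barcodes without rule UMIs, and the part of depth in the number of detected genes was not tested. Per 10000 UMIs the G2 and mitosis list took 117 UMIs against 11.2.

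**Figure D1:**
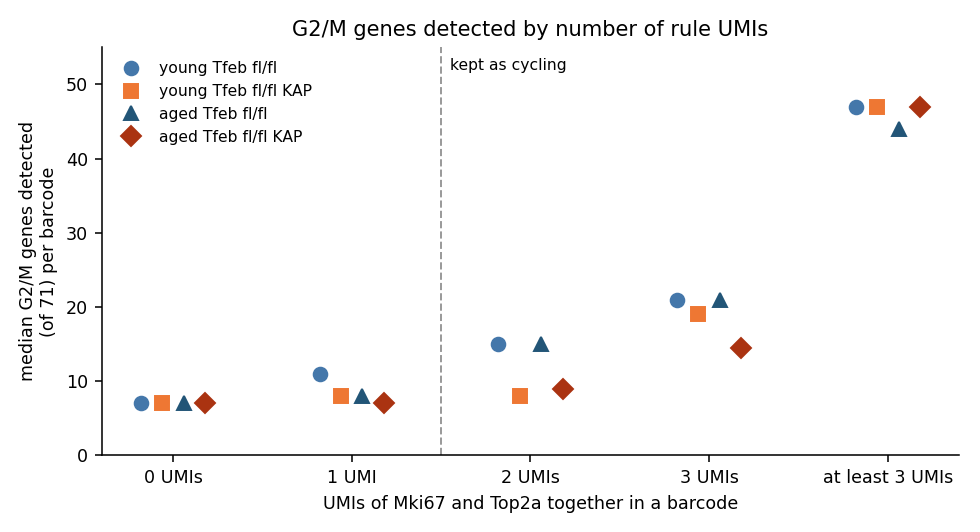
Median number of detected genes of the 71-gene G2 and mitosis list (vertical axis) by the number of Mki67 and Top2a UMIs in a barcode (horizontal axis), with 1 symbol per library; the group of at least 3 UMIs includes that of exactly 3. All 4 libraries stood at 7 genes without rule UMIs and at 44 to 47 genes with 3 or more, while the barcodes with exactly 2 UMIs lay between 8 and 15.

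The promoters of the 2 genes of the rule and of the 2 genes used to check it are shown because genes of the late cell cycle are known to share short promoter elements. They are the 250 bases before to 50 bases after the RefSeq start on GRCm38.p6, read 5′ to 3′ along the gene, which is the minus strand for Mki67 (chr7:135716330-135716629), Top2a (chr11:99024140-99024439) and Cdk1 (chr10:69352863-69353162) and the plus strand for Birc5 (chr11:117848987-117849286). Capitals mark 4 short elements, each searched on either strand. The first is TTTGAA, known as the cell cycle homology region. The second is the CCAAT box, spelled by its name. The others are forms of the E2F element, spelled TTCCCGC in the first form. The second form of it is spelled TTGGCGC, and it can share letters with a CCAAT box read on the opposite strand.
Mki67: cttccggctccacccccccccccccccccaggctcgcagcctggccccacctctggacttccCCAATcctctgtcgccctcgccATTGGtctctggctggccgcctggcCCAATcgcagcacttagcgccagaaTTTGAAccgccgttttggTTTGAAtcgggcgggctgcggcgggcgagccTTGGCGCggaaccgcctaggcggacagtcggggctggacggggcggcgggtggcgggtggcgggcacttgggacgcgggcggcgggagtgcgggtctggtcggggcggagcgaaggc
Top2a: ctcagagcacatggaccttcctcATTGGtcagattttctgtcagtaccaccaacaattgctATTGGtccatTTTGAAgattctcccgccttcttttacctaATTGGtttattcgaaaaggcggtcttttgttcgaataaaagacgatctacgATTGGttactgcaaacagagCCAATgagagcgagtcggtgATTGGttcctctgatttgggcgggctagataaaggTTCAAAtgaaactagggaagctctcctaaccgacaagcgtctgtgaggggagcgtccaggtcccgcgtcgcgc
Cdk1: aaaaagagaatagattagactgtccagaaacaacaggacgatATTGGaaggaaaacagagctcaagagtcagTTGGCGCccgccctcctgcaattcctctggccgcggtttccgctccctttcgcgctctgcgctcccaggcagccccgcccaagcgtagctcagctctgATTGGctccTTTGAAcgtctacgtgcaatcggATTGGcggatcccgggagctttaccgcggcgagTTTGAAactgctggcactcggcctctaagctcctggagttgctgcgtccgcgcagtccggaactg
Birc5: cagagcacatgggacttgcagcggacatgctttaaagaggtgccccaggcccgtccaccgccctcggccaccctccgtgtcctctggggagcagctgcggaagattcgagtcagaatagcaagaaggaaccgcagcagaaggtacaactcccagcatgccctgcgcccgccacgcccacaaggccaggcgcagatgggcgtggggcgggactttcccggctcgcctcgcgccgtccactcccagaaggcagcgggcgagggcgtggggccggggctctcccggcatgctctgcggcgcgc

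By these letters Mki67, Top2a and Cdk1 each held TTTGAA together with CCAAT, and the window of Birc5 held no match. Of 71 genes of the G2 and mitosis list, 56 were matched to the promoter table, and 39 of them held TTTGAA (69.6%), against 20.2% of the 27025 genes in the table. TTTGAA together with CCAAT stood in 58.9% of the list and in 7.97% of all genes. The S-phase list differed in its elements: 20 of 33 matched genes held an E2F form (60.6%), against 7 of 56 of the G2 and mitosis list (12.5%) and 7.79% of all genes, and 15.2% held TTTGAA. Among the 5616 matched genes of the expression comparison described further on, 14.8% held an E2F form and 14.5% TTTGAA, so the G2 and mitosis list lay below these genes for E2F and above them for TTTGAA. These are descriptions of letters, with no test.

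The share of cycling barcodes was highest in young Tfeb fl/fl mice, with 226 of 11016 barcodes, or 2.05% (interval 1.80 to 2.33). It was 0.850% in young Tfeb fl/fl KAP mice (72 barcodes, 0.666 to 1.07), 0.367% in aged Tfeb fl/fl mice (22 barcodes, 0.230 to 0.555) and 0.404% in aged Tfeb fl/fl KAP mice (28 barcodes, 0.269 to 0.583). The young Tfeb fl/fl KAP library was thus 2.41-fold below the young Tfeb fl/fl library, and the aged Tfeb fl/fl library 5.59-fold below it. The intervals of the 2 young libraries did not overlap each other or those of the aged libraries, and the intervals of the 2 aged libraries overlapped. The first ratio was 1.40-fold with at least 1 UMI, and the second 3.32-fold with at most 20% mitochondrial UMIs. After every barcode was thinned to 5000 UMIs, which left out shallower barcodes, the shares were 1.41%, 0.715%, 0.327% and 0.409% in the same order. The interval of young Tfeb fl/fl KAP mice then overlapped that of aged Tfeb fl/fl KAP mice (0.530 to 0.945 and 0.259 to 0.613), and with at most 20% mitochondrial UMIs it overlapped those of both aged libraries. Cycling barcodes were called doublets more often than others, in 24.3%, 22.2%, 18.2% and 17.9% of cases against 8.81%, 6.78%, 4.79% and 5.54% of all barcodes. The shares without called doublets were 1.70%, 0.709%, 0.316% and 0.351%.

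**Figure D2:**
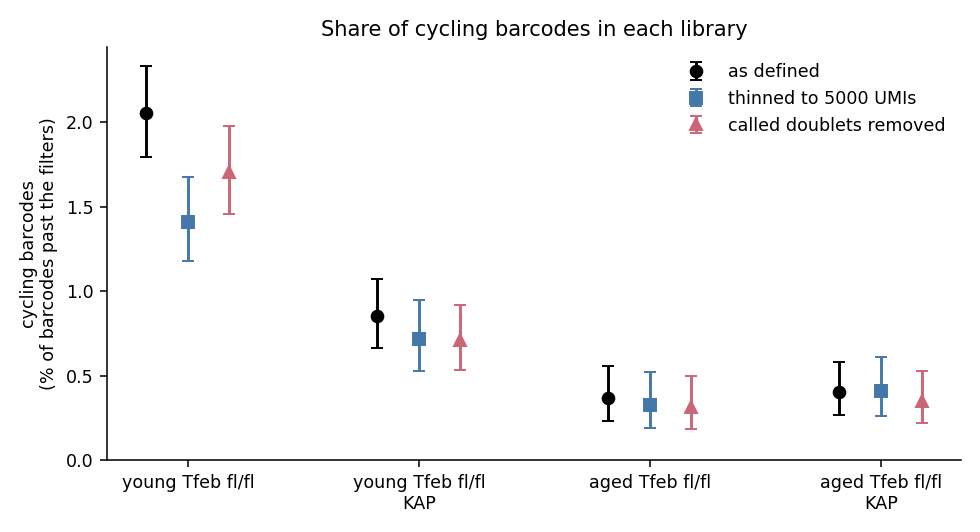
Share of cycling barcodes among the barcodes past the filters in each library, in percent, with exact 95% intervals for counting error; circles use all barcodes, squares barcodes thinned to 5000 UMIs, and triangles barcodes without called doublets. In all 3 versions young Tfeb fl/fl mice stood highest, young Tfeb fl/fl KAP mice second, and the aged libraries lowest with overlapping intervals.

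Each cycling barcode was given the class of most of its 20 nearest remaining barcodes in a map built without cell cycle genes, and the classes were named from marker genes. The names were rebuilt here and are written with "-like". In all, 148 cycling barcodes were S1/S2-like proximal tubule, 13 S3-like proximal tubule, 36 thick ascending limb-like (TAL-like), 24 distal convoluted tubule-like (DCT-like), 17 connecting tubule-like (CNT-like) and 10 principal cell-like (PC-like). A further 4 were intercalated cell-like, 21 endothelial-like, 5 mesangial and mural-like, 40 myeloid-like, 1 T and NK cell-like and 2 B and plasma cell-like. The remaining 27 lay among clusters without a name or had no majority among their neighbours. None of the 439 podocyte-like barcodes was cycling, which allows a share of up to 0.683% by 3 counts (exact upper bound 0.837%).

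Cycling barcodes carried the transport genes of their class. The classes were named from lists that hold these genes and were passed on by likeness of expression, so their detection describes the assignment and is no independent check of it. Slc34a1, the sodium-phosphate cotransporter of the proximal tubule, was detected in 147 of 148 S1/S2-like cycling barcodes, at 3058 CPM (its UMIs scaled to all UMIs summed over the same barcodes), against 4268 CPM in the remaining S1/S2-like barcodes. Cycling barcodes outside the proximal tubule served as the background, and there it was detected in 18.2% and reached 221 CPM. Slc5a2, the glucose cotransporter of the early segments, was found in 98.0% of the S1/S2-like cycling barcodes at 615 CPM and in 7.49% of cycling barcodes outside the proximal tubule. Median depth was 28000 UMIs in the former and 16840 in the latter. Umod, the secreted protein uromodulin, and Slc12a1, the sodium-potassium-chloride cotransporter, were detected in 36 of 36 TAL-like cycling barcodes, at 17079 and 5689 CPM. Umod was also detected in 29.8% of the other cycling barcodes, at 283 CPM. All 24 DCT-like cycling barcodes had UMIs of Slc12a3, the thiazide-sensitive cotransporter (3991 CPM, against 61.1 in other cycling barcodes), and all 10 PC-like ones had Aqp2, the vasopressin-regulated water channel (7137 against 226 CPM). The myeloid-like group was mixed. The antigen presentation chaperone Cd74 was found in 40 of 40 barcodes and the lysozyme gene Lyz2 in 35, but the complement gene C1qa of macrophages in 19 and the receptor gene Csf1r in 20.

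The class makeup of the cycling barcodes differed between the young and the aged libraries. Tubule classes held 188 of 226 cycling barcodes in young Tfeb fl/fl mice (83.2%, 77.7 to 87.8) and 49 of 72 in young Tfeb fl/fl KAP mice (68.1%, 56.0 to 78.6), but 6 of 22 in aged Tfeb fl/fl mice (27.3%, 10.7 to 50.2) and 9 of 28 in aged Tfeb fl/fl KAP mice (32.1%, 15.9 to 52.4). Immune classes held 9 of 226 (3.98%), 8 of 72 (11.1%), 13 of 22 (59.1%) and 13 of 28 (46.4%) in the same order. The intervals of young and aged libraries did not overlap for either group of classes. Cycling barcodes of the aged libraries had low mitochondrial shares, with medians of 3.71% and 1.98%, against 21.7% and 11.1% in the young libraries. Remaining barcodes had medians of at least 16.7% in every library. These values pool all classes. Myeloid-like cycling barcodes had medians of 1.43%, 2.23%, 1.85% and 0.961% over the 4 libraries. S1/S2-like cycling barcodes had 24.4% and 17.8% in the young libraries and 26.5% in aged Tfeb fl/fl KAP mice (7 barcodes).

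Within the S1/S2-like class, 106 of 2169 barcodes were cycling in young Tfeb fl/fl mice (4.89%, 4.02 to 5.88) and 33 of 1953 in young Tfeb fl/fl KAP mice (1.69%, 1.17 to 2.36), a 2.89-fold lower share. The aged libraries had 2 of 1200 (0.167%, 0.0202 to 0.601) and 7 of 1016 (0.689%, 0.277 to 1.41), with overlapping intervals. Of the 2 S1/S2-like cycling barcodes of aged Tfeb fl/fl mice, 1 had Slc34a1 listed at 0. TAL-like barcodes were cycling in 31 of 2102 cases in young Tfeb fl/fl mice (1.47%) and in 3 of 1418 in young Tfeb fl/fl KAP mice (0.212%), whose exact 95% intervals did not overlap. The share of young Tfeb fl/fl KAP mice was thus also lower outside the proximal tubule. Over the distal tubule classes together it was 0.499% against 1.49%, and over all tubule classes 0.749% (0.555 to 0.989) against 2.17% (1.87 to 2.50). In aged Tfeb fl/fl mice 6 of 4557 tubule barcodes were cycling (0.132%, 0.0483 to 0.286), 16.5-fold below young Tfeb fl/fl mice. With thinning to 5000 UMIs this ratio was 11.9-fold.

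S3-like barcodes, whose remaining members had more Kap than S1/S2-like ones in every library, were cycling in 10 of 1659 cases in young Tfeb fl/fl mice (0.603%, 0.289 to 1.11) and in 0 of 1381 in young Tfeb fl/fl KAP mice, which allows up to 0.217%. Of the 10, 8 were called doublets, and without called doublets 2 of 1630 (0.123%) were cycling in young Tfeb fl/fl mice and 0 of 1366 in young Tfeb fl/fl KAP mice. These counts could not show a difference. With all barcodes the exact intervals did not overlap, since the exact upper bound in young Tfeb fl/fl KAP mice was 0.267%. DCT-like and CNT-like barcodes had their highest shares in young Tfeb fl/fl mice too, at 1.66% and 1.47%, against 0.905% and 0.683% in young Tfeb fl/fl KAP mice, but these intervals overlapped. Endothelial-like barcodes were cycling in 1.36%, 0.606%, 0.311% and 0.285% of cases over the 4 libraries, and without called doublets, 9 of the 21, in 0.693%, 0.272%, 0.332% and 0.301%. Myeloid-like barcodes had the highest share over the 4 libraries together, 40 of 603 or 6.63%, with 8 of 153 (5.23%), 7 of 102 (6.86%), 12 of 170 (7.06%) and 13 of 178 (7.30%), whose intervals all overlapped. They made up 1.39%, 1.20%, 2.84% and 2.57% of all barcodes.

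**Figure D3:**
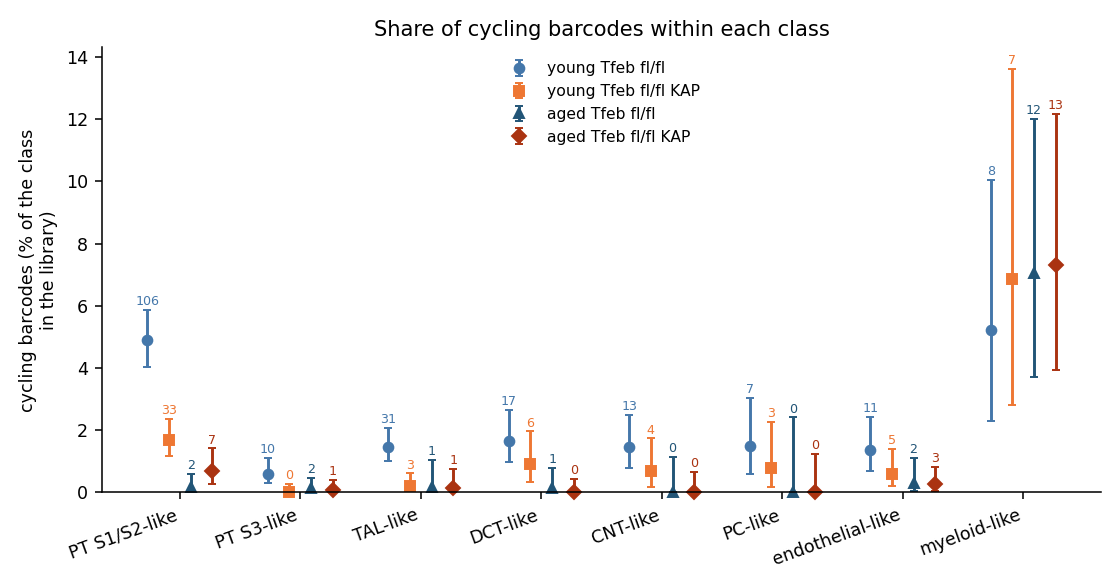
Share of cycling barcodes within each class and library, in percent of the barcodes of the class, with exact 95% intervals for counting error and the number of cycling barcodes above each interval. S1/S2-like barcodes ran from 4.89% in young Tfeb fl/fl mice to 0.167% in aged Tfeb fl/fl mice, whereas myeloid-like barcodes lay between 5.23% and 7.30% in all 4 libraries.

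Cycling barcodes were then set against the remaining barcodes of the same library, weighted to the same classes. CPM was computed from summed UMIs, and ratios are log2 ratios of CPM plus 5. Of 6981 genes with a mean of at least 20 CPM in either part, 238 (3.41%) were higher by a log2 ratio of at least 1 in all 4 libraries, and 2 (0.0286%), the matrix gene Mgp and Lyz2, were lower by as much. This is the contrast of the rule, so nothing is read from the counts. Of the 238 genes, 65 belonged to the G2 and mitosis list, 35 to the S-phase list, 2 to a list of G1 cyclins, E2F and Rb genes, 1 to the CDK inhibitors and 135 to none of these.

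Mki67 and Top2a, which chose the barcodes, were left out of the order of genes. Of the 20 leading genes, 15 belonged to the G2 and mitosis list and 1, Rrm2, to the S-phase list. Birc5 reached 305, 365, 293 and 251 CPM in the cycling barcodes of the 4 libraries and at most 2.45 CPM in the remaining ones, a median log2 ratio of 5.48. Cenpf, a kinetochore protein, had 292, 411, 207 and 184 CPM (median log2 ratio 5.46), and Ube2c, the ubiquitin-conjugating enzyme of the anaphase-promoting complex, 316, 564, 302 and 199 CPM (5.45). Cdk1 reached 174, 275, 168 and 170 CPM (4.83), Ccna2, cyclin A2, 121, 156, 123 and 109 CPM (4.59), and Ccnb2, cyclin B2, 162, 169, 84.1 and 113 CPM (4.53). Cycling and remaining values did not overlap for any of these genes, but they were chosen by this ratio, so this describes the choice. Stmn1, which destabilises microtubules, was the most abundant of the 20 leading genes, at 1627, 1754, 1114 and 1327 CPM, and it also had 37.8 to 70.5 CPM in remaining barcodes. Other leading genes were the spindle genes Prc1, Hmmr, Tpx2 and Nusap1, the anaphase activator Cdc20, the kinase Pbk, Cdca3 and Cdca8. The S-phase gene highest in the order was Rrm2, a subunit of ribonucleotide reductase, with a median log2 ratio of 4.73.

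**Figure D4:**
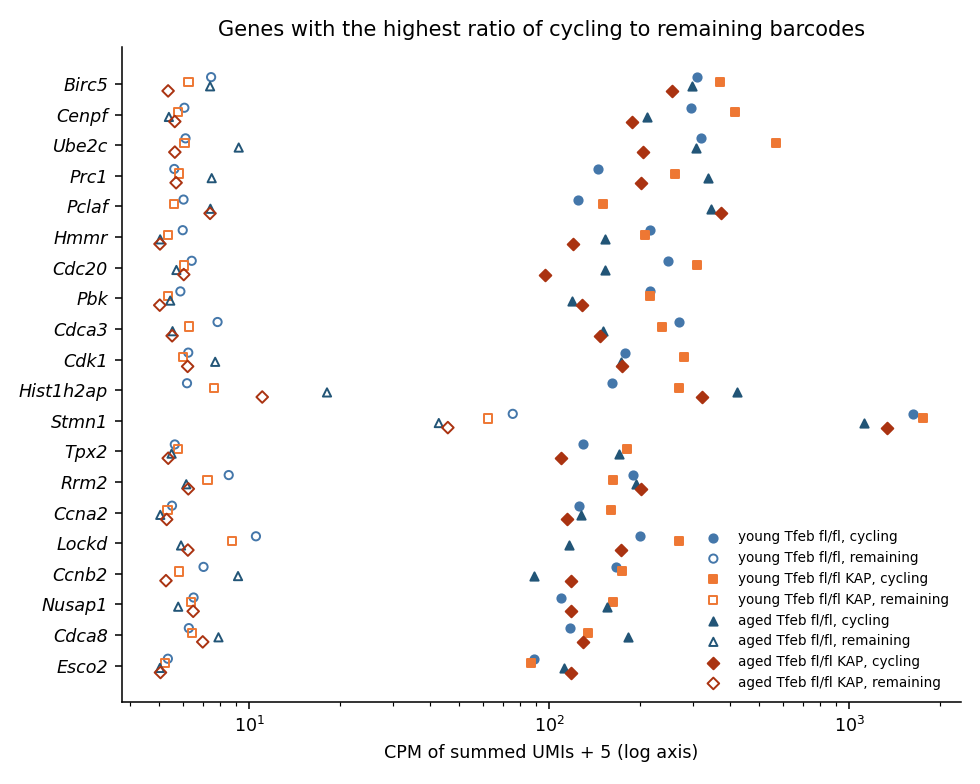
CPM plus 5 on a log axis for 20 genes, with 1 symbol per library. They have the highest median ratio of cycling (filled) to remaining (open) barcodes, weighted by class, once Mki67 and Top2a are left out. Filled and open symbols do not overlap for any gene, which describes the choice of genes by this ratio. Stmn1 is the gene with the highest level in both parts.

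Of the 20 leading genes, 4 were outside the cell cycle lists. Pclaf, a PCNA-binding factor, had 119, 146, 341 and 368 CPM and was higher in both aged than in both young libraries. The replication histone gene Hist1h2ap had 157, 266, 418 and 317 CPM, and the cohesin acetyltransferase gene Esco2 83.7, 82.1, 107 and 113 CPM, in the same order of ages. These values pool all classes, and immune classes held more of the cycling barcodes in the aged libraries. Myeloid-like cycling barcodes had a median of 35.9 S-phase UMIs per 10000 against 10.1 in S1/S2-like ones, for a list that holds none of these genes. Whether class makeup took part in the higher values of the aged libraries was not tested. Lockd, a noncoding RNA, had 195, 265, 111 and 168 CPM. A 3′ assay captures replication histone transcripts only where they are polyadenylated.

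Among 37 tested S-phase genes, 35 were called higher, with a median log2 ratio of 2.27, and among 67 tested G2 and mitosis genes 65, with a median of 3.24; over all genes the median was 0.04. Genes not called included Pold1, of DNA polymerase delta, in the first list, and in the second Bub3 and Pttg1, the securin gene, which was lower in all 4 libraries (median -0.51). Regulators of the G1 decision were less moved. Of 14 tested, 2 were called higher, Rbl1 and Lin54, partners of the cell cycle repressor complexes, while Ccnd1, cyclin D1, had log2 ratios of -0.32, -0.18, 0.13 and 0.23. Of 5 CDK inhibitors, only Cdkn2c (p18) was called higher, at 2.09, 2.63, 2.69 and 1.62. Cdkn1a (p21) had ratios of 0.33, 0.67, 1.49 and 0.42. In the list for DNA damage and p53, Brca1 (median 2.52) and Brca2 (1.95), both of homologous recombination, were called and the other 10 tested genes were not.

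No other list had a called gene. Of 41 proximal tubule function genes, 33 were lower in all 4 libraries, with a median of -0.62, against 18.4% of all tested genes lower in all 4 and 26.2% higher. Medians were 0.22 for 34 ribosomal protein genes, of which 24 were higher in all 4 libraries, -0.09 for 75 nuclear genes of oxidative phosphorylation, -0.27 for 25 fatty acid oxidation genes, -0.21 for 33 lysosome genes and 0.01 for 13 glycolysis genes. The median was -0.05 for 17 immediate early genes, -0.03 for 10 dissociation stress genes and -0.19 for 11 proximal tubule transcription factors. It was 0.12 for the 3 tested MiT/TFE factors, Mitf, Tfec and Tfe3, and 0.07 for 25 injury and repair genes. Among the latter the keratin gene Krt8 stood highest, at 1.48, 1.46, 0.95 and 1.46, and Clu, the chaperone clusterin, lowest, with a median of -1.08.

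The lowest ratios mixed tubule genes with genes of immune and stromal cells. Lyz2 had 17.9, 46.1, 1057 and 479 CPM in cycling and 102, 201, 3613 and 2132 CPM in remaining barcodes (median log2 ratio -2.08), but its ratio was 1.69 when remaining barcodes were not weighted by class. The ratios of Ccl3, Ifitm6, Plac8, Ccl4 and Apoc2 also turned positive then, and 57 genes were called lower, of which 1 was among the 2. Ly6c2, Fn1, Chil3, Ifitm6, Hp, Plac8, Ccl3, Ccl4 and Apoc2 are expressed by monocytes, macrophages or neutrophils. Most of these had their lowest ratios in the aged libraries, where myeloid-like barcodes made up much of the cycling part. Which myeloid subtypes cycled was not resolved. Tagln marks smooth muscle and Cldn5 endothelium, and Mgp, expressed by stromal and vascular cells, had 14.2, 15.9, 4.55 and 0 CPM in cycling barcodes. Tubule genes on the list were Kap, Slc7a13, Slc5a8, Cyp2e1, Acy3 and Ttc36 of the proximal tubule and Slc12a3 of the distal convoluted tubule.

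The haemoglobin UMIs left in the cycling part sat mostly in single barcodes. In aged Tfeb fl/fl mice 1 myeloid-like cycling barcode held all 2758 haemoglobin UMIs of the cycling part, with 16 UMIs of the erythroid haem gene Alas2, and in young Tfeb fl/fl mice 1 endothelial-like barcode held 886 of 934. Hbb-bs was listed at 0 in 25 of 226, 62 of 72, 9 of 22 and 22 of 28 cycling barcodes over the libraries. In remaining barcodes its UMIs came from few barcodes too, 43 of 10790, 41 of 8397, 4 of 5969 and 20 of 6903. Such concentration was thus not particular to cycling barcodes. The part of erythroid cells in the barcodes with haemoglobin UMIs was not tested.

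S1/S2-like barcodes were the largest cycling class and allowed a comparison within it in both young libraries, with 106 and 33 cycling barcodes. Of 5634 tested genes, 317 (5.63%) were higher and 58 (1.03%) lower by a log2 ratio of at least 1 in both libraries. The S-phase list had 24 of 26 genes called higher and the G2 and mitosis list 66 of 67. Of the 58 lower genes, 7 were among the 41 tested proximal tubule function genes. In that list 38 of 41 genes were lower in both libraries, with medians of -0.58 and -0.45, while 1395 of all 5634 genes were lower and 3190 higher in both, with medians of 0.15 and 0.17. The lower transporters included Slc22a6, the organic anion transporter OAT1, with 57.8 and 150 CPM in cycling against 261 and 345 CPM in remaining barcodes (log2 ratios -2.08 and -1.18). Slc22a8, the related transporter OAT3, had 139 and 192 against 317 and 399 CPM (-1.16 and -1.03), and Slc13a3, a dicarboxylate transporter, 21.1 and 40.6 against 101 and 127 CPM (-2.02 and -1.53). The enzyme genes Cyp4b1 (-2.03 and -1.27), Cyp2e1 (-1.82 and -1.79) and Acy3 (-1.96 and -1.75) stood with them, as did Lpl, lipoprotein lipase (-1.58 and -1.88). Not all transporters were lower. Of the 7 marker genes of segments S1 and S2, 6 were lower and 1 higher in both libraries, and 2 were called lower. Over all libraries together Slc5a2 had 615 CPM in cycling and 613 CPM in remaining S1/S2-like barcodes, and Slc7a8 461 and 293 CPM.

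Other proximal tubule genes were near the remaining level. Gatm, of creatine synthesis, had 3652 and 3322 CPM in cycling against 3724 and 3366 CPM in remaining S1/S2-like barcodes (log2 ratios -0.03 and -0.02). Lrp2, the endocytic receptor megalin, had ratios of -0.13 and -0.13, and Hnf4a, the transcription factor of proximal tubule identity, 0.02 and -0.05. Slc34a1 lay between, at -0.49 and -0.41. Ribosomal protein genes had medians of 0.22 and 0.20, with 33 of 34 higher in both libraries, and the oxidative phosphorylation genes -0.02 and 0.03. Lysosome genes were lower in both libraries for 20 of 27 tested (medians -0.24 and -0.19). Injury genes were mostly too low to test: of 12 injured-tubule markers only Spp1, Sox4 and Krt8 passed. All 3 were higher in both libraries, but Spp1 by log2 ratios of only 0.03 and 0.10 and Sox4 by 0.86 and 0.04. The keratin gene Krt8 was called (log2 ratios 1.73 and 1.87). It had 476 and 485 CPM in cycling against 140 and 129 CPM in remaining barcodes. Of the longer injury and repair list, 10 of 34 genes were tested, with 6 higher and 3 lower in both libraries. The medians of that list, 0.15 and 0.07, were not above those of all genes (0.15 and 0.17). Vcam1 had 1.04 and 3.87 CPM in cycling barcodes. The S1/S2-like cycling barcodes had medians of 27447 and 33493 UMIs, 2.05-fold and 2.19-fold above the remaining S1/S2-like barcodes. Of them, 71 of 106 and 14 of 33 lay in 1 cluster led by Spp2, Gatm and Slc5a2. Within this cluster the gap in depth was smaller, with medians of 29842 and 40062.5 UMIs in cycling against 22812.5 and 26636.5 in remaining barcodes. With the remaining barcodes weighted to the same clusters, 30 genes were called lower in both libraries, 3 of them function genes, while 37 of 41 function genes were below 0 in both.

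**Figure D5:**
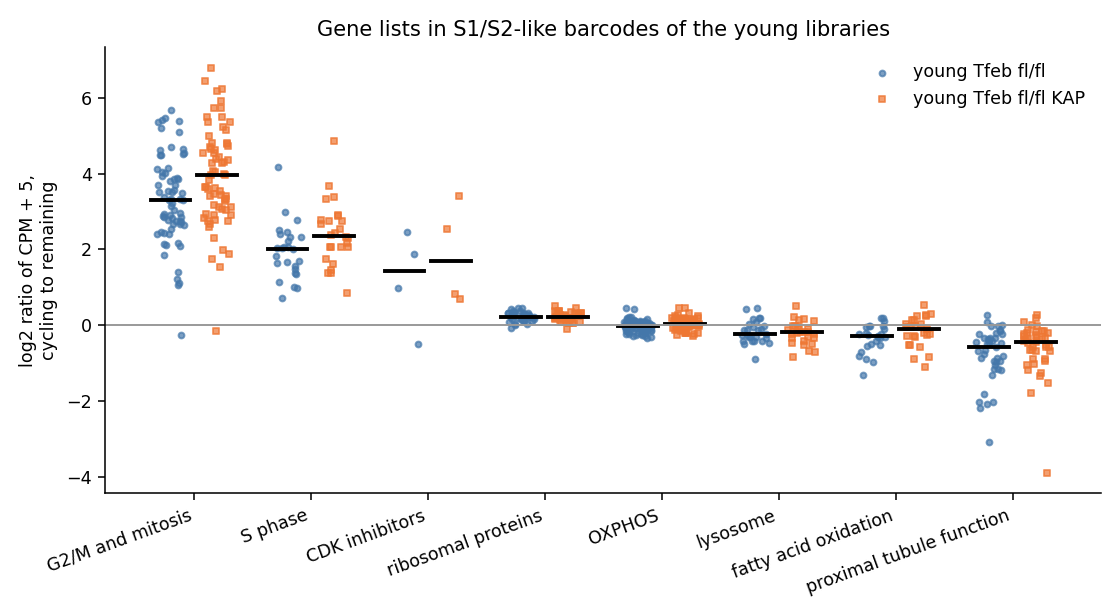
Log2 ratio of CPM plus 5 in cycling to remaining S1/S2-like barcodes of the 2 young libraries, with 1 point per tested gene and a bar at the median of each list. The medians of the G2 and mitosis list (3.31 and 3.96) and of the S-phase list (2.02 and 2.36) lie far above 0, although Pttg1 is below it in both libraries; the medians of ribosomal protein and OXPHOS genes lie close to 0, and 38 of 41 proximal tubule function genes below it in both libraries.

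Kap and the haemoglobin gene Hbb-bs were among the lowest genes. Entries listed at 0 were frequent for Kap in both young libraries and for Hbb-bs in young Tfeb fl/fl KAP mice. Kap, the kidney androgen-regulated protein, was listed at 0 in 98 of 106 S1/S2-like cycling barcodes of young Tfeb fl/fl mice and in 30 of 33 of young Tfeb fl/fl KAP mice, against 58.9% and 65.7% of the remaining S1/S2-like barcodes. Its UMIs came from 8 and 3 cycling barcodes. Hbb-bs had 0 UMIs in both cycling groups. It was listed at 0 in 12.3% of the cycling and 6.20% of the remaining S1/S2-like barcodes of young Tfeb fl/fl mice. In young Tfeb fl/fl KAP mice these shares were 84.8% and 66.4%. Its UMIs in remaining S1/S2-like barcodes came from only 4 of 2063 and 8 of 1920 barcodes, so its low ratios rested on few barcodes. In young Tfeb fl/fl KAP mice Slc22a6 was listed at 0 in 27.3% of cycling against 14.6% of remaining S1/S2-like barcodes, Cyp2e1 in 30.3% against 12.3% and Acy3 in 18.2% against 6.72%. Slc13a3 (21.2% against 5.21%), Cyp4b1 (33.3% against 20.2%) and Lpl (36.4% against 21.3%) had such entries too, and Slc22a8 fewer (9.09% against 2.66%). The part of these entries in the lower values was not tested. Slc34a1 and Gatm were listed at 0 in none of these cycling barcodes. Without genes listed at 0 in at least 10% of the cycling or remaining barcodes of either young library, 298 genes were called higher and 23 lower, 1 of them a function gene, while 31 of 34 function genes were below 0 in both, with medians of -0.45 and -0.35.

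The genotypes could be compared in cycling proximal tubule-like barcodes only at the young age, with 33 barcodes in Tfeb fl/fl KAP mice and 116 in Tfeb fl/fl mice; the aged libraries had 8 and 4. Of 2765 genes with a mean of at least 50 CPM, 14 (0.506%) were higher and 3 (0.108%) lower by a log2 ratio of at least 1 in young Tfeb fl/fl KAP mice. In the remaining proximal tubule-like barcodes the same rule gave 0 higher and 2 lower (0.0723%). Id3, an inhibitor of helix-loop-helix factors, had 89.9 against 22.9 CPM (log2 ratio 1.77, counting interval 1.36 to 2.17), and its ratio in remaining barcodes was 0.75. Mt1, the metallothionein, had 333 against 106 CPM (1.61, 1.39 to 1.82), and 0.09 in remaining barcodes. Gdf15, a stress-induced cytokine, had 261 against 106 CPM (1.26, 1.03 to 1.49), and 0.47 in remaining barcodes. The mitotic genes Kpna2 (149 against 47.1 CPM, 1.56, 1.25 to 1.88) and Aurka (127 against 49.9 CPM, 1.26, 0.94 to 1.58) completed the 5 largest ratios.

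Genes of the cycle were higher in the cycling proximal tubule-like barcodes of young Tfeb fl/fl KAP mice as a group: 47 of 51 tested G2 and mitosis genes were higher, with a median log2 ratio of 0.49, against 1763 of all 2765 genes with a median of 0.09. Cdk1 had 346 against 161 CPM (1.08, 0.89 to 1.28) and Birc5 488 against 354 CPM (0.46, 0.31 to 0.61). Mki67 and Top2a, which chose the barcodes, moved with these genes, so the counts describe the chosen barcodes. Dissociation stress genes, a list of heat shock and chaperone genes, were higher for 7 of 7, with a median of 0.56, and the same 7 of 7 in remaining barcodes with 0.46. Oxidative phosphorylation genes had 66 of 75 higher (0.21), against 62 of 75 in remaining barcodes (0.11). Proximal tubule function genes, with 27 of 38 higher (0.15), were near the share of all genes. Whether stress of the dissociation or depth took part in these differences was not tested; cycling S1/S2-like barcodes were deeper in Tfeb fl/fl KAP mice.

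The lowest ratios were those of Kap, the ribosomal RNA-derived transcripts AY036118 (-1.78) and Gm42418 (-0.99), the histone gene Hist1h1c (54.2 against 127 CPM, -1.15, interval -1.55 to -0.78) and Ptgds (-0.95). AY036118 and Gm42418 were lower in remaining barcodes too, at -1.57 and -1.22. Kap had 705 against 4215 CPM (-2.57), but its ratio was -8.89 with at least 3 UMIs of the rule's genes, -0.83 within S1/S2-like barcodes and -0.24 without called doublets, so no call is taken from it. All 10 S3-like cycling barcodes of the young libraries lay in Tfeb fl/fl mice, and 8 of them were called doublets. Tfeb itself was too rare to compare. Cycling proximal tubule-like barcodes held 28 UMIs in young Tfeb fl/fl mice (8.91 CPM, 5.92 to 12.9) and 6 in young Tfeb fl/fl KAP mice (5.80 CPM, 2.13 to 12.6), with overlapping intervals. In the aged libraries they held 0 UMIs, which allows up to 29.0 CPM, and 1 UMI (4.73 CPM, 0.120 to 26.4). In remaining S3-like barcodes Tfeb had 6.59 CPM (5.75 to 7.53) in young Tfeb fl/fl mice and 4.91 (4.11 to 5.83) in young Tfeb fl/fl KAP mice, and 5.19 (4.48 to 5.99) against 2.04 (1.58 to 2.58) in the aged pair. A floxed gene can still give 3′ reads after deletion, so its level does not measure deletion.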

How the data were processed

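Renal cortex single cells of 4 libraries were used. The authors counted reads with Cell Ranger (version 6.0.0), subtracted background RNA by SoupX (version 1.6.2) and deposited the corrected whole-number UMI counts per gene and barcode; the submitters' processing notes name build mm10. The study also removed doublets; the deposited files mark none. Here barcodes with at least 1000 detected genes and at most 50% mitochondrial UMIs were kept, and cycling barcodes had at least 2 UMIs of Mki67 and Top2a together. The members and gene lists were chosen with earlier results of these data known.

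Remaining barcodes were clustered (2000 variable genes without 148 cell cycle genes, 30 principal components, 20 neighbours, Leiden resolution 1) with scanpy 1.11.5 and leidenalg 0.10.2, without integration of libraries. A cluster was named by the marker list with the highest mean log2 fold, with at least 3 markers detected in 10% of its barcodes, a score of at least 0.5, at least 20 barcodes and no other class leading; this scoring rule was set after the clusters were seen. Clusters with markers of 2 classes in deep barcodes stayed unnamed. Doublets were scored per library with Scrublet, called at 0.8% per 1000 barcodes, and kept in the main values.

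CPM was taken from UMIs summed over barcodes, with 5 CPM added before log2, and genes needed a mean of 20 CPM (50 CPM between genotypes). With 1 library per condition no test was run. The call rule was run on Poisson counts simulated from the summed remaining barcodes of each library. These counts lack variation between cells and class weights, so they do not measure how often the calls err in these data. Named genes were the 20 with the highest and the 20 with the lowest median ratio among those of 1 sign in all libraries. Mki67 and Top2a were left out of this order. Between genotypes, the genes with the 5 largest and 5 smallest ratios were named. Each list was given by its counts, median and 4 members at most; genes named within S1/S2-like barcodes were chosen after their values were seen. Sequences came from the RefSeq promoter table.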

Additional observations from a re-analysis of the deposited data

Results flagged for a closer look

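Between the genotypes, the log2 ratio of the share of cycling barcodes (Tfeb fl/fl KAP over Tfeb fl/fl) was -1.27 at the young age and 0.14 at the aged age, so the 2 ages pointed opposite ways. The difference was not tested, since each group is 1 library, and the aged ratio rests on 28 and 22 barcodes. It was -0.39 when Cdk1 and Birc5 replaced the genes of the rule and -0.04 when at most 20% mitochondrial UMIs were allowed.

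Signal was also seen outside the cell filters. Barcodes that failed a filter but held at least 2 UMIs of Mki67 and Top2a were 13 of 5929 in young Tfeb fl/fl mice (0.219%) and 15 of 4216 in young Tfeb fl/fl KAP mice (0.356%), against 0 of 2367 and 1 of 3166 in the aged libraries. Of these 29 barcodes, 26 failed on mitochondrial UMIs.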

How the results depend on the processing

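The order of the shares, young Tfeb fl/fl above young Tfeb fl/fl KAP and both above the aged libraries, held under all 8 alternatives run; the aged order did not. For young Tfeb fl/fl mice the share was 3.69% with at least 1 UMI, 1.73% with at least 3, 1.38% with 1 UMI of each gene, 1.69% with a minimum of 200 genes, 1.41% after thinning and 1.70% without called doublets. With at least 1 UMI it was 2.63%, 0.885% and 1.17% in the other 3 libraries, and with at most 20% mitochondrial UMIs 1.08% in young Tfeb fl/fl KAP and 0.586% in aged Tfeb fl/fl mice. Without doublets 88.9% of the cycling barcodes of young Tfeb fl/fl mice were tubule. There the S1/S2-like share was 3.96% with at least 3 UMIs and 3.13% after thinning, and the TAL-like share 0.987% after thinning.

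The number of genes higher in all 4 libraries ran from 238 to 290, and each alternative kept at least 228 of the 238. The number lower was 57 with remaining barcodes not weighted by class, 7 with the mean CPM of each barcode, 10 with 1 CPM added, 10 with at least 3 UMIs, 12 without doublets, and 3 to 17 with 1 library left out: 5 without young Tfeb fl/fl, 9 without young Tfeb fl/fl KAP, 17 without aged Tfeb fl/fl and 3 without aged Tfeb fl/fl KAP mice. Without class weights Lyz2 (1.69), Ccl3 (1.45), Ifitm6 (0.11), Plac8 (0.81), Ccl4 (2.07) and Apoc2 (0.0050) had positive log2 ratios; 11.5% of the cycling barcodes were myeloid-like, against 1.86% of all barcodes. Between young genotypes 5 genes were lower without doublets. Alternatives for S1/S2-like barcodes were chosen after seeing the data: 30 genes were lower with remaining barcodes weighted by cluster and 23 without genes often listed at 0. The Kap ratio between young genotypes was -8.89 with at least 3 UMIs and -0.24 without doublets; no value is taken from it.

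The number of cycling barcodes, 22 and 28, limits the aged libraries; their median UMIs, 17889 and 16467, were also below those of the young cycling barcodes, 20524.5 and 25289. No paired analysis was possible because each group holds 1 library, so groups share fewer than 2 replicate numbers; cycling and remaining barcodes of the same library are the contrast that chose the barcodes and were not tested. Cells of 1 library are not replicates.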
